A study of Mus musculus with 10 samples.

Results

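The genes described here are 39 members of glycolysis and pyruvate entry, from the glucose transporters through lactate dehydrogenase to the pyruvate dehydrogenase (PDH) complex and its regulators. They were chosen by gene symbol under a rule that uses no measured value, and all 39 were found among the 26146 genes of the count table. Each of the 39 also passed edgeR's filter on low counts, which kept 14165 genes for testing. Sorted HSCs of the phenotype LSKCD48-CD150+ were profiled by RNA-seq, with 5 *Cited2* CTL and 5 *Cited2* CKO libraries, numbered CTL 1 to 5 and CKO 1 to 5. The *Cited2* CTL animals, named wild type in the labels, carried floxed *Cited2* alleles (*Cited2* fl/fl) without Cre, and the *Cited2* CKO animals, named *Cited2* KO in the labels, were *Cited2* fl/fl;Vav-iCre. All mice were on the C57BL/6J background and were 8 to 12 weeks old. Vav-iCre is active throughout the hematopoietic system from fetal life onwards, so the deletion is not restricted to HSCs, and the *Cited2* CTL animals lacked the Cre transgene. The comparison asks how the steady-state HSC expresses the enzymes of sugar breakdown and whether their levels move when *Cited2* is deleted.

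Glycolysis turns glucose into pyruvate in the cytosol: a preparatory phase spends ATP to split the sugar, and a payoff phase makes ATP and NADH. Pyruvate is then either reduced to lactate by lactate dehydrogenase and exported, or carried into mitochondria by the pyruvate carrier and oxidised to acetyl-CoA by the PDH complex, which PDH kinases switch off and PDH phosphatases switch on. HSCs reside in a hypoxic niche and are known for a reliance on glycolysis with the PDH complex held back. CITED2, a nuclear protein, competes with HIF-1alpha for the coactivators CBP and p300, and many glycolytic genes are textbook targets of HIF-1alpha.

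Libraries held from 3058690 to 4548795 counts. *Cited2* itself had 101 to 222 CPM across the CTL libraries and 3.80 to 120.1 CPM across the CKO libraries, because the library labelled CKO 3 held 120.1 CPM (counts scaled to a common normalized library total) while the other 4 CKO libraries held 3.80 to 8.30 CPM. The log2 fold change of *Cited2* was -2.51 (edgeR adjusted p = 0.328) with all libraries and -4.92 without the library labelled CKO 3, so results that turn on CKO 3 are given with and without it. All 10 HSC markers of a list (among them *Slamf1*, *Kit*, *Fgd5* and *Hlf*) were detected, and their summed level was 2094 to 2425 CPM in the CTL and 1868 to 2122 CPM in the CKO libraries, with 1 marker higher and 2 lower in *Cited2* CKO at an unadjusted p under 0.05. The 5 markers of multipotent progenitors reported here summed to 522 to 631 CPM in the CTL and 517 to 582 CPM in the CKO libraries. Of these 5, *Cd48* was called higher in *Cited2* CKO, and 1 other was lower at an unadjusted p under 0.05. Markers of cycling cells summed to 1728 to 1951 CPM and 1654 to 2171 CPM, erythroid markers to 46.2 to 112 CPM and 45.6 to 63.8 CPM, megakaryocyte markers to 403 to 492 CPM and 385 to 534 CPM, granulocyte and monocyte markers to 422 to 775 CPM and 416 to 622 CPM with *Ly6g* at 0 in every library, and lymphoid markers to 58.0 to 104 CPM and 93.3 to 134 CPM, in *Cited2* CTL and *Cited2* CKO libraries respectively. At an unadjusted p under 0.05, 3 of the 10 cycling markers were higher in *Cited2* CKO and 0 lower, and of the lymphoid markers 1 of the 3 tested was higher. Over all tested genes, 5.8% were higher and 7.08% lower at that p, and 0.226% were called. Of the CKO libraries, CKO 3 held the highest sum of cycling markers (2171 CPM). It also held the lowest CKO sums of HSC, multipotent progenitor, erythroid, and granulocyte and monocyte markers. The part of these marker levels in the members' differences was not tested.

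Promoters are shown for the lactate dehydrogenase and aldolase pairs, because in each pair the minor paralog was lower in every *Cited2* CKO library than in any *Cited2* CTL library while the mean share of the major paralog was higher. Sequences are the RefSeq promoter windows of GRCm38.p6, from 250 bases before to 50 bases after a transcript start, 5′ to 3′ on the strand of the gene, and for genes with several starts the most upstream one is printed. Capitals mark the letters ACGTG and GCGTG, read on either strand, which are the core letters bound by HIF dimers. The letters ACGTG also overlap the E-box CACGTG.
Ldha: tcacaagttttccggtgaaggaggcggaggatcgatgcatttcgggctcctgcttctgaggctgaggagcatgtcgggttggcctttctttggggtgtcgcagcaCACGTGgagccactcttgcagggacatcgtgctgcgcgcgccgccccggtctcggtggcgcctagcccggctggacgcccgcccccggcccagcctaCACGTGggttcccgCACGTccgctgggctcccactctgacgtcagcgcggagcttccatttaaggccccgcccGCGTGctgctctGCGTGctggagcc
Ldhb: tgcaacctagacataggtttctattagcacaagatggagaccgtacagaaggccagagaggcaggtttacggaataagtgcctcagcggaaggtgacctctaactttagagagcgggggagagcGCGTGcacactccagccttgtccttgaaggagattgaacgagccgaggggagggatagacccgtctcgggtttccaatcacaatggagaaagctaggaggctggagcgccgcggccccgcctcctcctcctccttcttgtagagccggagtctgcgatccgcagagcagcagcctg
Aldoa: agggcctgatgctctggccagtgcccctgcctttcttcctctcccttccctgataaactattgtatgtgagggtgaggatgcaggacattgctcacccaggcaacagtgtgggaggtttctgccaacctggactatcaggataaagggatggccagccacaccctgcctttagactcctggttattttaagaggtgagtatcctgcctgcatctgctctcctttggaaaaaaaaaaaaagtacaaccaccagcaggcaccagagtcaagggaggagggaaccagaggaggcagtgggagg
Aldoc: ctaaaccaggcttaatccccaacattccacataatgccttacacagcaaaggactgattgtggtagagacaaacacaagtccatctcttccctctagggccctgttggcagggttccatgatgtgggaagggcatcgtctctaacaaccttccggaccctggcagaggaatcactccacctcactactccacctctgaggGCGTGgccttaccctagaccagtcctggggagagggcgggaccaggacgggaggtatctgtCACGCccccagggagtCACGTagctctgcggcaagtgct
The *Ldha* window (chr7:46845554-46845853, plus strand) held 7 matches, 5 of ACGTG and 2 of GCGTG. It held the E-box letters CACGTG 2 times, each read as ACGTG on both strands. The *Ldhb* window (chr6:142507908-142508207, minus strand) held 1 match. The *Aldoa* window (chr7:126800398-126800697, minus strand) held 0 matches. The other 2 *Aldoa* windows overlap each other and held the same 1 match. The *Aldoc* window (chr11:78322823-78323122, plus strand) held 3 matches. Promoter windows were matched for 37 of the 39 members (not for *Slc2a3* and *Pdp1*). Of the 57 windows of these genes, 42.1% held ACGTG, against 19.6% of all 32851 windows of the table. Windows of the same gene can overlap, and each was counted separately. GCGTG was held by 52.6% of member windows and 32.4% of all windows, and either motif by 73.7% and 43.8%. The median GC content was 60.7% in member windows and 52.7% in all windows. These matches describe letters in the windows and were not measured as bound sites.

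None of the 39 members was called between the genotypes by edgeR's quasi-likelihood F test (Benjamini-Hochberg adjusted p under 0.05 and a fold change above 20%), where 0.226% of tested genes were called, 17 higher and 15 lower in *Cited2* CKO. The smallest edgeR adjusted p of a member was 0.103, for *Ldhb*. At an unadjusted p under 0.05, 9 members were lower in *Cited2* CKO HSCs (*Slc2a3*, *Gpi1*, *Pfkl*, *Aldoa*, *Aldoc*, *Tpi1*, *Pkm*, *Ldhb* and *Pdk2*), against a background of 7.08% of tested genes, and 2 were higher (*Pfkfb2* and *Pdk3*), against 5.8%. In 3 members (*Aldoa*, *Aldoc* and *Ldhb*) every *Cited2* CKO library lay below every *Cited2* CTL library, which held for 1.98% of tested genes, and 0 members lay wholly above, which held for 1.35%. The DESeq2 Wald test at the same thresholds called 2 members, *Aldoc* and *Ldhb*, both lower, where it called 2.44% of the genes it tested. Of the 39 members, 12 had a log2 fold change above 0 and 27 below, with a median of -0.079. Over all tested genes the median was 0.0065, and 49.0% lay below 0. *Pdk4* and *Aldoc* had the lowest log2 fold changes of the members (-0.77 and -0.72), and 8 members differed by more than 20%.

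**Figure D1:**
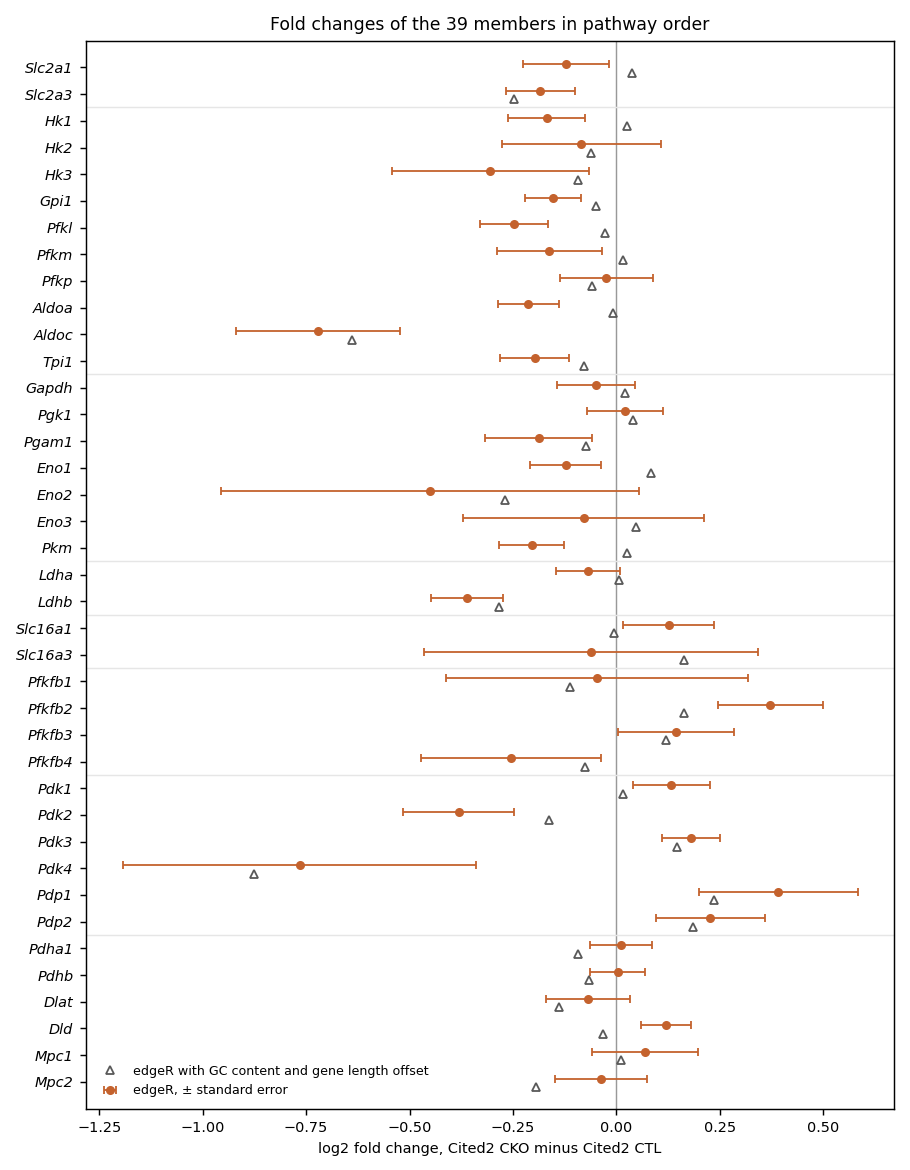
Log2 fold change of each member in pathway order (circles with standard error, edgeR, n = 5 libraries per genotype) and the same value corrected for GC content and length by an offset (open triangles). Most of the genes from Slc2a1 to Ldhb lie left of 0 without the offset, and Aldoc, at -0.72, and Pdk4, at -0.77, lie farthest left.

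All 10 genes of the preparatory phase and 6 of 7 genes of the payoff phase had a lower mean in *Cited2* CKO HSCs, and from hexokinase to lactate dehydrogenase 18 of 19 enzymes did, *Pgk1* being the exception. Over all tested genes, 49.0% had a log2 fold change below 0. Among tested genes with a GC content above the median, 68.7% did. The median log2 fold change was -0.18 in the preparatory phase, -0.12 in the payoff phase, 0.16 among the PDH kinases and phosphatases and 0.0067 among the pyruvate carrier and PDH core. The difference between parts of the pathway was not tested. With a correction for GC content and length (described further on) 11 of the 19 enzymes from hexokinase to lactate dehydrogenase were lower, and the payoff phase had 5 of 7 genes above 0 and a median of 0.027. The corrected median was -0.053 in the preparatory phase, with 8 of 10 genes below 0, and -0.079 among the pyruvate carrier and PDH core, with 5 of 6 below 0. It was 0.082 among the PDH kinases and phosphatases.

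Glucose enters through facilitative transporters of the Slc2a family. *Slc2a3* (GLUT3), a high-affinity transporter, was measured at 222, 208, 189, 193 and 188 CPM in CTL 1 to 5 and 168, 167, 182, 205 and 158 CPM in CKO 1 to 5. All CKO libraries other than CKO 4 lay below the lowest CTL library, and CKO 4 lay within the *Cited2* CTL range. The difference was a log2 fold change of -0.18 ± 0.083 (SE, edgeR adjusted p = 0.373), with an unadjusted p of 0.0430. *Slc2a1* (GLUT1), the widely expressed basal transporter, had 64.8 to 79.6 CPM across the CTL libraries and 59.4 to 76.1 CPM across the CKO libraries, with a log2 fold change of -0.12 ± 0.10 (SE, edgeR adjusted p = 0.667). Its ranges overlapped. SE is the standard error of the log2 fold change.

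Hexokinase traps glucose in the cell by phosphorylation. *Hk1*, the constitutive form bound to mitochondria, had 194, 207, 193, 218 and 206 CPM in CTL 1 to 5 and 156, 219.9, 169.7, 198 and 163 CPM in CKO 1 to 5. CKO 1, CKO 3 and CKO 5 lay below every CTL library, CKO 2 lay above them all, and the log2 fold change of -0.17 ± 0.093 (SE, edgeR adjusted p = 0.474) did not pass. *Hk2*, the inducible form, had 25.8 to 43.1 CPM across the CTL libraries and 24.2 to 38.3 CPM across the CKO libraries (log2 fold change -0.085, 95% interval -0.50 to 0.33). *Hk3*, a form found in myeloid cells, had 27.5 to 81.6 CPM across the CTL libraries and 30.7 to 44.4 CPM across the CKO libraries (log2 fold change -0.30, 95% interval -0.82 to 0.21). The widest spread of *Hk3* came from CTL 1, which held the highest value of the 10 libraries.

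*Gpi1*, the isomerase that makes fructose 6-phosphate, was measured at 277, 256, 268, 233 and 249.7 CPM in CTL 1 to 5 and 222, 246, 217, 225 and 242 CPM in CKO 1 to 5. CKO 1, CKO 3 and CKO 4 lay below all *Cited2* CTL libraries, and CKO 2 and CKO 5 lay above CTL 4 alone. Its log2 fold change of -0.15 ± 0.067 (SE, edgeR adjusted p = 0.361) had an unadjusted p of 0.0379.

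Phosphofructokinase commits the sugar to glycolysis and is the main allosteric control point. *Pfkl*, the liver-type subunit (chromosome 10, 77986947 to 78010083, minus strand, GRCm38), was measured at 222, 222, 218, 212 and 176 CPM in CTL 1 to 5 and 157, 182, 177, 197 and 172 CPM in CKO 1 to 5. Every *Cited2* CKO library lay below CTL 1 to 4, while CTL 5 lay below 3 of the CKO libraries. The mean was 210.1 ± 19.6 CPM in the CTL group and 177 ± 14.5 CPM in the CKO group (SD, n = 5), with a log2 fold change of -0.25 ± 0.082 (SE, edgeR adjusted p = 0.235). *Pfkm*, the muscle-type subunit, had 69.7 to 91.4 CPM across the CTL libraries and 56.0 to 88.5 CPM across the CKO libraries and a log2 fold change of -0.16. *Pfkp*, the platelet-type subunit, had 96.9 to 126.4 CPM across the CTL libraries and 90.8 to 128 CPM across the CKO libraries and a log2 fold change of -0.024 (95% interval -0.26 to 0.22). Neither passed the test, and both overlapped widely.

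Aldolase splits fructose 1,6-bisphosphate into triose phosphates. *Aldoa*, the widely expressed isozyme, was measured at 290.3, 253, 254, 234 and 228 CPM in CTL 1 to 5 and 203, 226, 214, 219.6 and 223 CPM in CKO 1 to 5. The groups did not overlap, by the narrow margin between CKO 2, the highest CKO library, and CTL 5, the lowest CTL library. *Aldoa* averaged 251.8 ± 24.3 CPM in the CTL group and 217 ± 8.94 CPM in the CKO group (SD, n = 5), a log2 fold change of -0.21 ± 0.073 (SE, edgeR adjusted p = 0.246).

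*Aldoc*, the isozyme best known from brain (chromosome 11, 78322968 to 78327781, plus strand, GRCm38), showed the largest difference of the glycolytic enzymes. It was measured at 67.2, 49.3, 40.0, 39.5 and 45.3 CPM in CTL 1 to 5 and 21.6, 27.7, 39.2, 23.5 and 33.6 CPM in CKO 1 to 5. CKO 3 lay only just below CTL 4, and the other 4 CKO libraries lay well below all CTL libraries. The mean was 48.2 ± 11.3 CPM in the CTL group and 29.1 ± 7.28 CPM in the CKO group (SD, n = 5), with a log2 fold change of -0.72 ± 0.20 (SE, edgeR adjusted p = 0.145). The 95% interval of the log2 fold change was -1.15 to -0.30, DESeq2 gave an adjusted p of 0.0368, and without CKO 3 the log2 fold change was -0.85 (edgeR adjusted p = 0.101). No other gene model overlaps its exons, and no gene of the annotation shares near-identical sequence with it.

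*Tpi1*, which interconverts the triose phosphates, was measured at 248, 216, 226, 193 and 199 CPM in CTL 1 to 5 and 173, 172, 197, 195 and 206 CPM in CKO 1 to 5. CKO 1 and CKO 2 lay below all CTL libraries, and the other 3 CKO libraries lay above CTL 4. The log2 fold change of -0.20 ± 0.083 (SE, edgeR adjusted p = 0.341) had an unadjusted p of 0.0321.

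**Figure D2:**
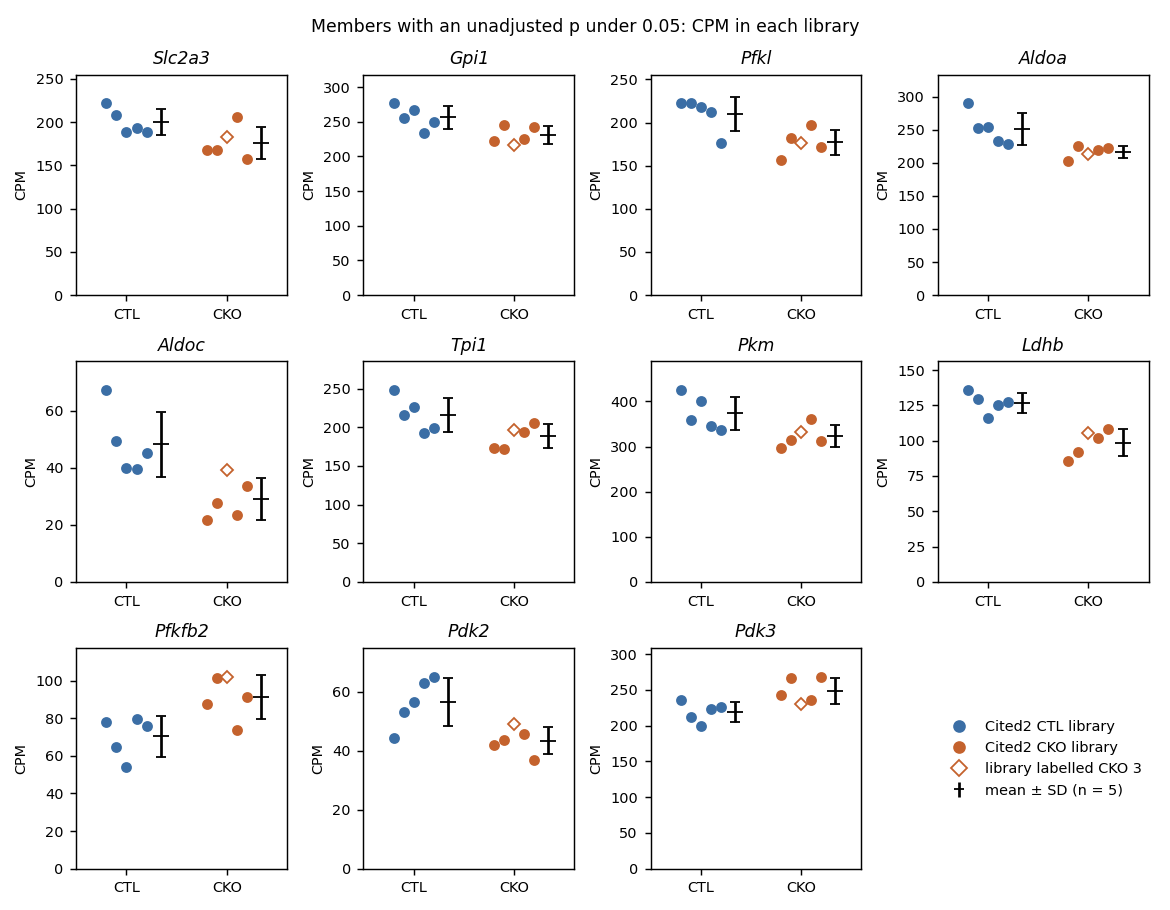
CPM in each library for the 11 members with an unadjusted p under 0.05 (filled circles, with the library labelled CKO 3 as an open diamond, and bars for mean ± SD, n = 5). Aldoa, Aldoc and Ldhb show no overlap between the genotypes, and in Pfkfb2 and Pdk3 most CKO libraries lie above the CTL libraries.

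The payoff phase begins with the oxidation of triose phosphate. *Gapdh*, which forms the first NADH, was measured at 97.6, 78.6, 92.0, 77.5 and 87.1 CPM in CTL 1 to 5 and 80.1, 88.6, 79.7, 81.1 and 88.5 CPM in CKO 1 to 5. These values overlapped, and the log2 fold change of -0.048 had a 95% interval of -0.25 to 0.15. The annotation holds 90 genes of near-identical sequence to *Gapdh*, most of them processed pseudogenes, of which 6 stand in the count table with 358 counts in all beside 3324 for *Gapdh*, so its level is uncertain. *Pgk1*, the X-linked kinase that makes the first ATP, was measured at 125.7, 117, 110.2, 109 and 112 CPM in CTL 1 to 5 and 113, 117, 108, 104 and 139.6 CPM in CKO 1 to 5. CKO 5 held the highest value and CKO 4 the lowest, and the log2 fold change was 0.021 (95% interval -0.18 to 0.22). *Pgam1*, the mutase of the next step, was measured at 55.2, 48.0, 47.0, 40.2 and 49.4 CPM in CTL 1 to 5 and 42.3, 41.8, 35.5, 47.3 and 43.6 CPM in CKO 1 to 5. CKO 3 was the lowest library, and the log2 fold change of -0.19 ± 0.13 (SE, edgeR adjusted p = 0.588) did not pass.

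*Eno1*, the ubiquitous enolase, was measured at 219, 205, 218, 201 and 178 CPM in CTL 1 to 5 and 169.7, 183, 183, 224 and 178 CPM in CKO 1 to 5. CKO 4 lay above every other library, CKO 1 and CKO 5 lay below all CTL libraries, and the log2 fold change of -0.12 ± 0.086 (SE, edgeR adjusted p = 0.598) did not pass. *Eno2*, the neuronal isozyme, had only 3.34 to 12.9 CPM across the CTL libraries and 2.77 to 10.7 CPM across the CKO libraries, as few as 10 counts in a library, and its 95% interval of -1.53 to 0.63 was wide. *Eno3*, the muscle isozyme, had 9.70 to 15.4 CPM across the CTL libraries and 5.94 to 13.8 CPM across the CKO libraries (log2 fold change -0.079).

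*Pkm*, pyruvate kinase of muscle and dividing cells, makes pyruvate and the last ATP, and was measured at 425, 358, 400.1, 346 and 337 CPM in CTL 1 to 5 and 298, 315, 333, 362 and 311 CPM in CKO 1 to 5. All CKO libraries other than CKO 4 lay below the lowest CTL library. The log2 fold change of -0.20 ± 0.079 (SE, edgeR adjusted p = 0.306) had an unadjusted p of 0.0213. Counts per gene do not separate the M1 and M2 splice forms of *Pkm*.

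Lactate dehydrogenase returns NAD+ to glycolysis. *Ldha*, the subunit that favours lactate formation and a classical HIF-1alpha target, was measured at 420.0, 368, 372, 339 and 314 CPM in CTL 1 to 5 and 324, 347, 338, 371 and 346 CPM in CKO 1 to 5. All CKO libraries lay between CTL 5 and CTL 3, inside the *Cited2* CTL range. Its log2 fold change of -0.069 had a 95% interval of -0.23 to 0.096 (edgeR adjusted p = 0.754).

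*Ldhb*, the subunit that favours pyruvate formation (chromosome 6, 142490249 to 142507957, minus strand, GRCm38), had no overlap between the genotypes. It was measured at 136, 129, 116, 125 and 127 CPM in CTL 1 to 5 and 85.3, 92.0, 105, 102 and 108 CPM in CKO 1 to 5. The lowest CTL library, CTL 3, lay above the highest CKO library, CKO 5. The mean was 127 ± 7.25 CPM in the CTL group and 98.6 ± 9.61 CPM in the CKO group (SD, n = 5), with a log2 fold change of -0.36 ± 0.087 (SE, edgeR adjusted p = 0.103) and a 95% interval of -0.55 to -0.17. DESeq2 gave it an adjusted p of 0.0150, and without CKO 3 the log2 fold change was -0.39. *Slc16a1* (MCT1), which carries lactate and pyruvate across the plasma membrane, was measured at 203, 187, 147, 141 and 142 CPM in CTL 1 to 5 and 155, 175, 189, 194 and 181 CPM in CKO 1 to 5. The CTL libraries spanned a wider range than the CKO libraries, and the log2 fold change of 0.13 ± 0.11 (SE, edgeR adjusted p = 0.676) did not pass. *Slc16a3* (MCT4), the exporter of strongly glycolytic cells, had only 4.39 to 8.10 CPM across the CTL libraries and 4.12 to 10.8 CPM across the CKO libraries, with a 95% interval of the log2 fold change of -0.93 to 0.80.

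The bifunctional PFKFB enzymes set the level of fructose 2,6-bisphosphate, the strongest activator of phosphofructokinase. *Pfkfb2*, the heart-type form, was measured at 77.9, 64.7, 54.1, 79.5 and 75.9 CPM in CTL 1 to 5 and 87.7, 101, 102, 73.5 and 91.3 CPM in CKO 1 to 5. All CKO libraries other than CKO 4 lay above the highest CTL library. The log2 fold change of 0.37 ± 0.13 (SE, edgeR adjusted p = 0.246) had an unadjusted p of 0.0112. *Pfkfb3*, the inducible form with the highest kinase activity, was measured at 50.8, 55.6, 52.0, 63.4 and 62.8 CPM in CTL 1 to 5 and 81.1, 63.1, 61.0, 46.7 and 62.7 CPM in CKO 1 to 5. CKO 1 was the highest and CKO 4 the lowest library, and its log2 fold change was 0.14 (95% interval -0.16 to 0.45). *Pfkfb4* had 16.6 to 33.3 CPM across the CTL libraries and 14.3 to 22.8 CPM across the CKO libraries (log2 fold change -0.25). *Pfkfb1*, the X-linked liver form, had 6.17 to 13.3 CPM across the CTL libraries and 4.70 to 15.0 CPM across the CKO libraries (log2 fold change -0.048).

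PDH kinases phosphorylate and silence the PDH complex, and their paralogs lay on different sides of 0. *Pdk3*, an X-linked kinase (chromosome X, 93764607 to 93832201, minus strand, GRCm38), was measured at 235, 212, 199, 224 and 226 CPM in CTL 1 to 5 and 242, 266, 230.0, 235 and 268 CPM in CKO 1 to 5. The groups overlapped only in that CTL 1 lay above CKO 3. The log2 fold change of 0.18 ± 0.070 (SE, edgeR adjusted p = 0.309) had an unadjusted p of 0.0218. *Pdk2*, the most widely expressed kinase in other tissues (chromosome 11, 95026258 to 95041354, minus strand), was measured at 44.5, 53.3, 56.4, 63.1 and 65.0 CPM in CTL 1 to 5 and 42.1, 43.5, 49.2, 45.6 and 36.9 CPM in CKO 1 to 5. CTL 1 lay among the CKO libraries, and CTL 2 to 5 lay above all of them. The log2 fold change of -0.38 ± 0.13 (SE, edgeR adjusted p = 0.262) had an unadjusted p of 0.0131.

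*Pdk1*, a kinase known as a HIF-1alpha target, had 187 to 242 CPM across the CTL libraries and 209 to 284 CPM across the CKO libraries (log2 fold change 0.13, 95% interval -0.068 to 0.33). *Pdk4*, the kinase induced by fasting, had 7.02 to 24.7 CPM across the CTL libraries and 4.28 to 13.7 CPM across the CKO libraries, with the highest value of each genotype in library 3. Its log2 fold change of -0.77 ± 0.43 (SE, edgeR adjusted p = 0.481) rested on 15 to 84 counts, and without CKO 3 the log2 fold change was -1.13 (edgeR adjusted p = 0.312). The phosphatases oppose the kinases. *Pdp1*, the calcium-stimulated phosphatase, was measured at 78.3, 98.3, 60.0, 87.7 and 84.7 CPM in CTL 1 to 5 and 89.4, 99.7, 109, 167 and 73.5 CPM in CKO 1 to 5. CKO 4 stood above the rest, CKO 1 and CKO 5 lay within the *Cited2* CTL range, and the log2 fold change of 0.39 ± 0.19 (SE, edgeR adjusted p = 0.412) did not pass. *Pdp2* had 48.5 to 65.2 CPM across the CTL libraries and 54.9 to 86.0 CPM across the CKO libraries (log2 fold change 0.23, edgeR adjusted p = 0.501).

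The genes of mitochondrial entry had log2 fold changes close to 0. *Pdhb*, the beta subunit of PDH E1, had 189, 186, 184, 185 and 186 CPM in CTL 1 to 5 and 167, 190.5, 191, 205 and 180.0 CPM in CKO 1 to 5. The CTL libraries were nearly level, and the log2 fold change was 0.0030 (95% interval -0.14 to 0.15). *Pdha1*, the X-linked alpha subunit that the kinases phosphorylate, had 208 to 257 CPM across the CTL libraries and 206 to 246 CPM across the CKO libraries (log2 fold change 0.010, 95% interval -0.15 to 0.17). Its exons overlap *Map3k15* on the opposite strand, which had 3133 counts in all beside 9079 for *Pdha1*, so reads of the pair cannot be told apart without strand. *Dlat*, the E2 acetyltransferase, was measured at 109, 95.2, 124, 132 and 118 CPM in CTL 1 to 5 and 105, 116, 127, 102 and 102 CPM in CKO 1 to 5. These ranges overlapped, with a log2 fold change of -0.068. *Dld*, the E3 subunit shared with other complexes, was measured at 195, 206, 191, 198 and 194 CPM in CTL 1 to 5 and 199.7, 214, 214, 229 and 212 CPM in CKO 1 to 5. CKO 2 to 5 lay above every CTL library and CKO 1 lay among them, but the difference was small, with a log2 fold change of 0.12 ± 0.060 (SE, edgeR adjusted p = 0.420). *Mpc1*, a subunit of the pyruvate carrier, had 33.6 to 42.2 CPM across the CTL libraries and 34.6 to 43.7 CPM across the CKO libraries (log2 fold change 0.069), and its partner *Mpc2* had 67.8 to 85.6 CPM across the CTL libraries and 60.6 to 80.0 CPM across the CKO libraries (log2 fold change -0.038).

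Levels of different genes were compared per length, as CPM per kilobase of the deposited gene length. Summed over the genes of a step, the lactate dehydrogenases were the highest step of *Cited2* CTL HSCs at 286 ± 23.4 CPM per kilobase (SD, n = 5). PDH E1, the sum of its obligate subunits *Pdha1* (83.9) and *Pdhb* (125), followed at 209 ± 7.70, the PDH kinases at 181 ± 6.20, the aldolases at 166 ± 19.3, pyruvate kinase at 144 ± 14.5 and triosephosphate isomerase at 135 ± 13.8. Either E1 subunit alone had a lower mean than the PDH kinases, the aldolases, pyruvate kinase or triosephosphate isomerase. The lactate dehydrogenases lay above PDH E1 in every CTL library, while the aldolases, pyruvate kinase and triosephosphate isomerase overlapped in their ranges. In the middle stood the pyruvate carrier, the sum of its partner subunits *Mpc1* and *Mpc2*, at 128 ± 10.5, the enolases at 125 ± 8.24, the phosphofructokinases at 113 ± 7.48 and phosphoglucose isomerase at 89.8 ± 5.84 CPM per kilobase, of which the carrier and the enolases did not differ beyond their spread. The hexokinases (66.0 ± 6.63), *Gapdh* (70.3 ± 7.02) and *Pgk1* (63.7 ± 3.86) overlapped with each other. The lowest steps were the PDH phosphatases at 36.0 ± 4.83, the PFKFB enzymes at 30.7 ± 3.40, PDH E2 at 28.7 ± 3.53 and *Pgam1* at 26.2 ± 2.93 CPM per kilobase, with overlapping ranges. The PDH kinases thus stood at 181 CPM per kilobase and the opposing phosphatases at 36.0. In *Cited2* CKO HSCs the aldolases were at 136 ± 7.36 CPM per kilobase, the only summed step of the 20 without overlap between the genotypes.

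Among genes over 500 bases long the highest count per base in any library was 1.72, and *Ldha*, the highest member, had a mean of 0.713 counts per base and ranked 115 of 24125 genes. Whether duplicate reads were removed is not given in the sources used here. The part of such a step in the levels, and in the step order and paralog shares built on them, was not tested. In bulk libraries, fewer cells of a type and less RNA per cell cannot be told apart.

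**Figure D3:**
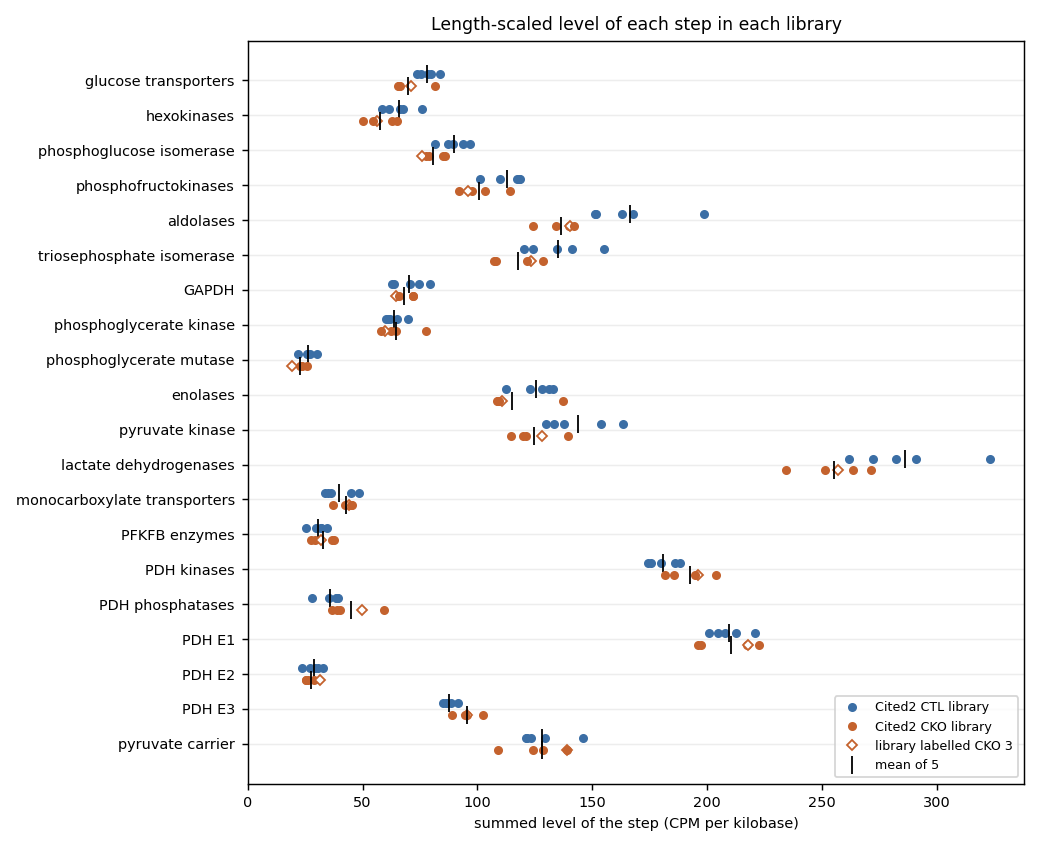
Summed CPM per kilobase of the genes of each step in each library (circles, with the library labelled CKO 3 as an open diamond, and the mean of 5 as a bar). The lactate dehydrogenases are highest in both genotypes, and the aldolases are the step in which no CKO library reaches a CTL library.

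Each step with several paralogs leaned on a leading gene. In *Cited2* CTL HSCs the share of the summed CPM per kilobase was 64.5 ± 2.59% for *Slc2a3* among the glucose transporters, 69.0 ± 7.98% for *Hk1* among the hexokinases and 49.95 ± 1.92% for *Pfkl* among the phosphofructokinases (SD, n = 5). Further down it was 83.1 ± 2.12% for *Aldoa*, 91.6 ± 1.99% for *Eno1*, 65.6 ± 2.38% for *Ldha* and 93.4 ± 1.83% for *Slc16a1*. Among the regulators it was 35.2 ± 2.81% for *Pfkfb3*, 60.6 ± 3.78% for *Pdk3* and 52.7 ± 3.10% for *Pdp1*. The PFKFB enzymes and the phosphatases were the most evenly divided families. *Pdk1* and *Pdk2* held 23.6 ± 2.13% and 13.8 ± 1.68% of the kinases, and *Pdk4* 2.00 ± 1.201%. By mean share the leading gene was the same in *Cited2* CKO HSCs in all 10 families, though in CKO 5 *Pdp2* (53.3%) lay above *Pdp1* (46.7%). The lead of *Pfkfb3* and *Pdk3* rested on length scaling. In plain CPM *Pfkfb2* averaged 70.4 and *Pfkfb3* 56.9 in CTL libraries, and *Pdk1* and *Pdk3* were both at 219.

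In 3 families a share had an exact p under 0.05, and none passed adjustment. In *Cited2* CKO HSCs *Pdk2* had a lower mean share of the PDH kinases, with 11.2, 13.1, 14.3, 14.8 and 15.4% in CTL 1 to 5 and 10.2, 9.43, 11.1, 10.9 and 8.37% in CKO 1 to 5. No CKO library reached the lowest CTL library, and the mean share was 13.8 ± 1.68% in CTL and 9.997 ± 1.11% in CKO libraries (two-sided exact permutation test, n = 5 and 5, p = 0.00794, the smallest that 5 against 5 libraries can give, adjusted p = 0.175 over the 22 shares tested). *Ldha* had a higher mean share of the lactate dehydrogenases, with 67.4, 65.5, 68.2, 64.4 and 62.3% in CTL 1 to 5 and 71.7, 71.6, 68.2, 70.9 and 68.1% in CKO 1 to 5. Only CTL 3 lay within the range of the CKO libraries, and the mean share was 65.6 ± 2.38% and 70.1 ± 1.82% (exact permutation p = 0.0238, adjusted p = 0.233). *Aldoa* had a higher mean share of the aldolases, with 80.1, 82.7, 85.6, 84.7 and 82.5% in CTL 1 to 5 and 89.8, 88.4, 83.6, 89.7 and 86.1% in CKO 1 to 5. CKO 3 lay inside the *Cited2* CTL range, and the mean share was 83.1 ± 2.12% and 87.5 ± 2.65% (exact permutation p = 0.0317, adjusted p = 0.233). After adjustment 0 of the 22 shares passed.

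With each library left out in turn, the exact permutation p of the *Pdk2* share ranged from 0.00794 to 0.0159. For the *Ldha* share it ranged from 0.00794 to 0.0556, the highest value without CKO 1. The *Aldoa* share had p-values from 0.0159 to 0.0556 in the same exact test, and stood at 0.0556 when CTL 1, CTL 2 or CTL 5 was left out. The *Pfkfb2* share of the PFKFB enzymes was 23.8 ± 2.53% and 29.3 ± 4.90% (exact permutation p = 0.0556), and the *Pfkl* share of the phosphofructokinases 49.95 ± 1.92% and 47.3 ± 2.40% (exact permutation p = 0.0635). The remaining 17 shares had exact permutation p-values above these, and the *Hk1* share was 69.0 ± 7.98% and 69.4 ± 3.44%. No share was computed with the correction for GC content and length. The GC content was 56.9% for *Pdk2*, 46.4% for *Pdk1* and 47.7% for *Pdk3*, and its part in the *Pdk2* share was not tested.

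**Figure D4:**
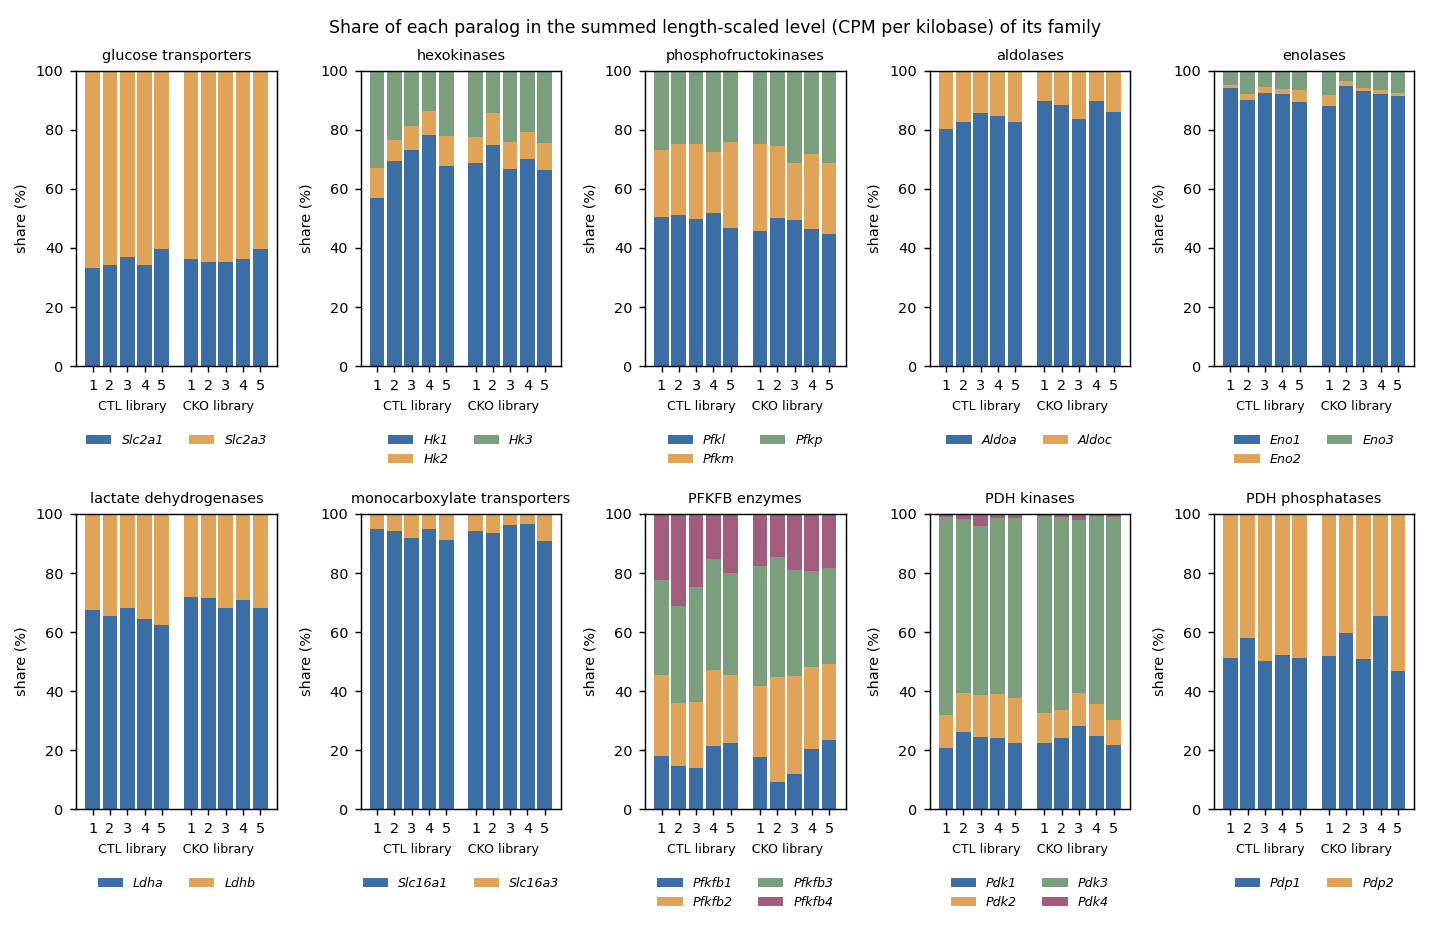
Share of each paralog in the summed CPM per kilobase of its family (percent, stacked bars, each bar a library, CTL 1 to 5 left and CKO 1 to 5 right). The Pdk2 band is thinner in the CKO libraries, and the Aldoc and Ldhb bands are thinner in most of them.

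The fold changes of the members followed the GC content of their transcripts. Over the 39 members, Spearman's rho of the log2 fold change with GC content was -0.65, and over all tested genes it was -0.45. This is a description across genes that share the same libraries, and genes are not independent replicates. Of 23 members with a GC content above 48.8%, the median of tested genes, 21 had a lower mean in *Cited2* CKO HSCs, beside 68.7% of all tested genes above that median. Of the 16 members at or below it, 6 did, beside 29.5% of all tested genes. When edgeR was run with a per-library offset that removes trends with GC content and length, 3 members had an unadjusted p under 0.05, all lower: *Aldoc* (log2 fold change -0.64), *Ldhb* (-0.28) and *Pdk4* (-0.88). The share of all tested genes at that p under the offset is not given here, so this count has no background beside it. The same offset brought *Pkm* to 0.027, *Aldoa* to -0.0072, *Pfkl* to -0.028 and *Pdk2* to -0.16 on the log2 scale, and it brought *Pfkfb2* to 0.16 and *Pdk3* to 0.15. Such an offset also removes any effect of genotype that follows GC content, and the part of GC content in the members' differences was not tested otherwise.

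**Figure D5:**
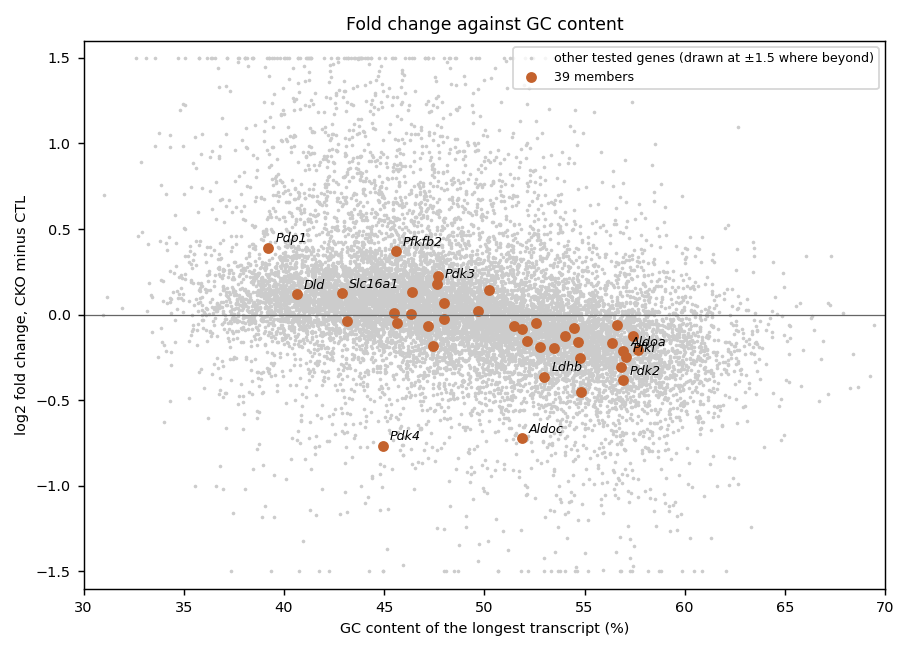
Log2 fold change (edgeR) against the GC content of the longest transcript for the 39 members (large points, some named) and the other tested genes (small points). Members and other genes both slope downwards, and Aldoc and Pdk4 lie below the slope.

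The library labelled CKO 3 and the X chromosome changed little which members had an unadjusted p under 0.05. Some log2 fold changes moved more when CKO 3 was left out. *Pfkm* went from -0.16 to -0.072 and *Pgam1* from -0.19 to -0.13. *Pdk1* went from 0.13 to 0.065 and *Pdp2* from 0.23 to 0.14. Without CKO 3, 11 members had an unadjusted p under 0.05, 2 of them higher (*Pfkfb2* and *Pdk3*) and 9 lower, among which *Pdk4* replaced *Gpi1*, and 0 were called. The labels do not give the sex of the mice, and *Xist*, the RNA of the inactive X chromosome, was above 1000 CPM in 2 CTL and 2 CKO libraries and at most 19.7 CPM in the others. Of the 4 X-linked members (*Pgk1*, *Pdk3*, *Pdha1* and *Pfkfb1*), with *Xist* as a covariate *Pdk3* had a log2 fold change of 0.18, *Pgk1* 0.017, *Pdha1* 0.012 and *Pfkfb1* -0.15, the last against -0.048 without it. In that fit 10 members had an unadjusted p under 0.05, and *Slc2a3* was at 0.0527. Neither for this fit nor for the fit without CKO 3 is the share of all tested genes at that p given here. Several members overlap genes on the opposite strand, such as *Aldoa* with *Fam57b*, *Tpi1* with *Spsb2*, *Gapdh* with *Iffo1* and *Hk1* with *Hk1os*, and use of strand in the counting is not given in the sources used here. *Aldoc*, *Ldhb*, *Pfkl*, *Pdk2*, *Pdk3* and *Slc2a3* overlap no other exon of the annotation. Between libraries of a genotype the members had a median coefficient of variation of 10.2% among CTL and 11.3% among CKO libraries. It reached 56.9% for *Pdk4* among CTL and 63.4% for *Eno2* among CKO libraries. Of the 39 members, 31 had at least 100 counts in every library.

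Other genes of sugar metabolism and of the HIF pathway were read from lists. Among 12 tested HIF targets outside glycolysis 1 was called, *Ndrg1*, a hypoxia-induced gene of the NDRG family, with 256 to 308 CPM across the CTL libraries and 156 to 225 CPM across the CKO libraries and a log2 fold change of -0.51 ± 0.093 (SE, edgeR adjusted p = 0.0421). Without CKO 3 its log2 fold change was -0.52 (edgeR adjusted p = 0.0503) and with the offset for GC content and length -0.46 (edgeR adjusted p = 0.174), so the call was lost in both. DESeq2 gave it an adjusted p of 6.4e-05. The medians of the log2 fold changes were -0.011 for these targets and -0.0048 for the 11 genes of the HIF pathway itself, where 1 gene had an unadjusted p under 0.05. No gene of the 5 lists that follow was called by edgeR with all libraries, and DESeq2 called 3 lower, all in the glycogen list. Over the genes each method tested, edgeR called 0.226% and DESeq2 2.44%. At an unadjusted p under 0.05 in edgeR, 5.8% of all tested genes were higher and 7.08% lower.

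Glycogen genes gave 1 higher and 3 lower of 14 at an unadjusted p under 0.05, where 5.8% of all tested genes were higher and 7.08% lower. *Pygb* and *Pygm*, the brain and muscle glycogen phosphorylases, had 112 to 133 CPM across the CTL libraries and 80.6 to 114 CPM across the CKO libraries and 44.2 to 74.8 CPM across the CTL libraries and 16.2 to 48.0 CPM across the CKO libraries. *Pygb* had a log2 fold change of -0.46 ± 0.10 (SE, edgeR adjusted p = 0.0822). *Pygm* had a log2 fold change of -0.99 ± 0.25 (SE, edgeR adjusted p = 0.117), and without CKO 3 a log2 fold change of -1.26 (edgeR adjusted p = 0.0218). *Gaa*, the lysosomal acid glucosidase, had 154 to 209.9 CPM across the CTL libraries and 131 to 148 CPM across the CKO libraries, without overlap, and a log2 fold change of -0.41 ± 0.084 (SE, edgeR adjusted p = 0.0700). The DESeq2 adjusted p was 0.00472 for *Pygb*, 0.0131 for *Pygm* and 0.00222 for *Gaa*. The offset for GC content and length gave a log2 fold change of -0.31 for *Pygb*, -0.80 for *Pygm* and -0.15 for *Gaa*, none of them called. *Gyg*, the primer protein of glycogen, had a log2 fold change of 0.23 ± 0.071 (SE, edgeR adjusted p = 0.214).

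Of 10 pentose phosphate genes, 2 had an unadjusted p under 0.05 in the higher direction and 1 in the lower, with *Prps2*, which makes phosphoribosyl pyrophosphate, at a log2 fold change of 0.26 ± 0.084 (SE, edgeR adjusted p = 0.218) and 0.13 with the offset. Of 13 genes of the serine and hexosamine branches, 1 was higher at that p, *Gfpt2*, which feeds the hexosamine pathway, with 6.69 to 23.0 CPM across the CTL libraries and 17.3 to 40.3 CPM across the CKO libraries and a log2 fold change of 0.96 ± 0.32 (SE, edgeR adjusted p = 0.234). Gluconeogenesis had 4 tested genes of 7, with 1 lower, and of 18 tested further paralogs and side steps of glycolysis 0 had an unadjusted p under 0.05 in edgeR. Beside these counts, 5.8% of all tested genes were higher and 7.08% lower at that p. The median log2 fold changes were -0.083 for glycogen, -0.066 for the pentose phosphate pathway, -0.046 for the serine and hexosamine branches, -0.20 for gluconeogenesis and -0.048 for the further paralogs.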

How the data were processed

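Polyadenylated RNA of sorted HSCs was sequenced by the authors as single-ended 85-base reads, aligned to GRCm38 (mm10 in the submitters' processing notes) with HISAT2 v.2.1.0 and counted per gene with Rsubread v.2.0.1. The authors deposited raw counts per gene symbol, not normalized, with a gene length in bases. The annotation used for counting, strand, the handling of reads with several matches and of duplicates are not given in the sources used here. Libraries were grouped by genotype from their labels. The study gives 5 animals per genotype, but the labels do not name the animals, so the spread between libraries may be partly technical.

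The tests ran in edgeR 4.0.16 under R 4.3.3, with filterByExpr, TMM normalization and the robust quasi-likelihood F test, with Benjamini-Hochberg adjustment over 14165 genes. The common biological coefficient of variation was 25.3%. CPM used TMM-normalized totals, and paralog shares used CPM per kilobase with two-sided exact permutation tests. Alternatives were DESeq2 1.42.0 (Wald test) and its size factors, limma-voom (limma 3.58.1), other filters, no fold threshold, the replicate number as a block, each library left out, a loess offset (span 50%) for GC content and length, and *Xist* as a covariate. The offset without the library labelled CKO 3 was added after seeing the data. The rule for the members uses gene symbols and no measured value. Earlier results of these data were nevertheless known when the members and all gene lists were chosen. A marker of the multipotent progenitor list is not reported here and was left out of its sum after its values were seen. Genes named with values in every library were those with an unadjusted p under 0.05, those without overlap, and the leading gene of each family or single-gene step. Outside the members, *Cited2* and list genes with an unadjusted p under 0.01 were named. The replicate block gave 15 higher and 9 lower calls. The same-number libraries correlated at -0.09 to 0.21 in their deviations, and 1 of 5 correlated best with its own number, so the numbers were not taken as pairs. Libraries of a genotype differed by more than sampling noise (chi-square per gene at least 4.70). Gene positions, exons and GC content came from GENCODE M21 (GC for 97.0% of genes). Near-identical genes were found with BLAST 2.17.0 (at least 95% identity over 200 bases). On simulated counts for this comparison, edgeR recovered 180 of 200 changed genes with 5 false calls among 13625 genes. DESeq2 recovered 188 with 21 false calls among 14165 genes. The planted changes lay in genes above a minimum mean count. They were larger than the log2 fold change of any member, of which *Pdk4* had the largest (-0.77). The recovery therefore does not describe changes as small as those of the members. With a simulated GC trend over 13606 genes false calls numbered 2188 before and 7 after the offset was applied. That trend had a fixed size, was the same in every simulated CKO library and was not fitted to these data. Its false calls therefore do not measure the GC trend of the real libraries.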

Additional observations from a re-analysis of the deposited data

Results flagged for a closer look

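In 124 groups of 5 libraries, CPM of the members and of *Cited2* and the paralog shares were examined for a library whose gap to its neighbour exceeded the 95% critical value of Dixon's test (0.71 of the range). Chance alone marks about 1 in 20 such groups, and 12 groups were marked. The groups are not all independent, since a gene and its own share were both examined. *Pfkl* in CTL 5 was low, at 176 CPM against 212 to 222 in the others. *Eno1* in CKO 4 was high, at 224 CPM against 169.7 to 183. *Eno2* in CKO 1 was high, at 10.7 CPM against 2.77 to 4.95, and so was its share of the enolases, at 3.74%. *Pdk4* in CTL 3 was high, at 24.7 CPM against 7.02 to 11.4, with a share of the PDH kinases of 4.11%. In CKO 3 the *Pdk4* share was 2.03% against 0.682 to 1.02%. *Pdha1* in CKO 5 was low, at 206 CPM against 235 to 246. *Mpc2* in CTL 1 was high, at 85.6 CPM against 67.8 to 71.7. The share of *Slc2a1* among the glucose transporters was 39.6% in CKO 5 against 35.2 to 36.3%, and the share of *Pdp1* among the PDH phosphatases was 58.0% in CTL 2 against 50.2 to 52.3%. *Cited2* in CKO 3 stood at 120.1 CPM against 3.80 to 8.30 CPM. The cause of these values was not tested.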

How the results depend on the processing

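Of the log2 fold changes of the members and of *Cited2* under the alternatives, 683 values kept their direction and their side of the threshold, 44 reversed and 5 newly passed. Those that newly passed were values of *Aldoc*, *Ldhb* and *Cited2*. No member passed the thresholds under any alternative other than the DESeq2 Wald test, which called *Aldoc* and *Ldhb* (2 members) and, over all genes, 146 higher and 192 lower. The replicate block gave 9 lower calls over all genes, and 0 members were called in it. With each library left out in turn, 5 to 27 genes were called higher and 3 to 18 lower, the highest number of higher calls coming without CKO 3, while 8 to 11 members had an unadjusted p under 0.05 and 0 were called. Under the GC content and gene length offset, 5 genes were called higher and 3 lower, and 3 members had an unadjusted p under 0.05, also 3 without the library labelled CKO 3. Counts of members at an unadjusted p under 0.05 in these alternatives stand without the share of all tested genes. The offset reversed the log2 fold changes of *Slc2a1* (0.037), *Hk1* (0.025), *Pfkm* (0.016), *Gapdh* (0.020), *Eno1* (0.085), *Eno3* (0.046), *Pkm* (0.027, and 0.013 without CKO 3), *Ldha* (0.0059), *Slc16a1* (-0.0061), *Slc16a3* (0.16), *Pdha1* (-0.093), *Pdhb* (-0.065) and *Dld* (-0.033). Without a filter on low counts *Pdha1* was at -0.0077 and *Pdhb* at -0.014, and limma-voom gave *Pdhb* -0.0035. With each library left out, log2 fold changes near 0 changed sign: *Eno3* from -0.17 to 0.078, *Hk2* from -0.19 to 0.033, *Mpc2* from -0.091 to 0.015, *Pdha1* from -0.030 to 0.044, *Pdhb* from -0.036 to 0.038, *Pfkfb1* from -0.28 to 0.12, *Pfkp* from -0.085 to 0.043, *Pgk1* from -0.063 to 0.053 and *Slc16a3* from -0.35 to 0.054. Differences of shares, in percentage points, ranged in the same way from -0.447 to 1.25 for *Eno1*, -0.954 to 0.0974 for *Eno2*, -0.292 to 0.898 for *Eno3*, -2.72 to 2.67 for *Hk1*, -3.18 to 1.63 for *Hk3*, -0.246 to 1.38 for *Pdk1*, -0.391 to 4.32 for *Pdp1*, -3.41 to 0.181 for *Pfkfb1* and -1.198 to 1.35 for *Pfkm*. Without length scaling the difference was -0.0131 for *Pfkm* and -1.39 for *Pfkfb3*. The paired sign-flip test of the shares within replicate numbers cannot give a p below 0.0625, so none could pass, and the *Pdk2* share stood at that value (-3.78 percentage points). The cause of these shifts was not tested. Depth limits *Eno2*, *Slc16a3*, *Pfkfb1*, *Pdk4* and *Eno3* most.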
